A study of Mus musculus with 21 samples.

Results

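The mitochondrial respiratory chain and ATP synthase genes of mouse gonads were followed across 5 comparisons on 2-colour arrays. A gene was a member if the single symbol of its probes began with Nduf, Uqcr or Atp5, was an Sdh gene from a to d or a Cox gene from 4 to 8, or was Cycs or Cyc1, and if it had values on at least 3 arrays of any comparison. The symbol rule found 63 genes, of which Atp5g3, with 1 value, did not meet the array minimum, so 62 were members among 6799 genes that did. They comprise 23 genes of complex I, 3 of complex II, 6 of complex III, 10 of complex IV and 15 of ATP synthase (complex V). Cytochrome c and 4 complex I assembly factors make up the rest. The complex I counts include Ndufs5-ps, a pseudogene by its symbol. A model fitted over all genes needed values on 3 or more arrays of every comparison, which 54 members and 4465 genes in all had. The 8 members outside it were Ndufv1, Ndufa12, Ndufs1, Ndufb11, Ndufaf1, Ndufaf3, Cox6b1 and Cox7b. They are described from a second fit that asked for 3 arrays of the comparison in question alone.

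The study hybridised total RNA from 2 sources on each of 21 arrays. Wild type whole ovary was set against wild type whole testis on 4 arrays, wild type whole testis of 15 day old mice against adult wild type whole testis on 4, and whole testis of Spo11 knockout mice against wild type whole testis on 4. Wild type whole testis (4 arrays) and wild type whole ovary (5 arrays) were each also set against a commercial reference, the Universal mouse RNA of Stratagene. The labels gave no strain, no age for the ovaries or the knockout animals, no design of the knockout allele, and no word on whether arrays held separate animals. The p-values therefore measure only how far arrays differ, and that spread may be technical. Spo11 is the enzyme that cuts DNA at the start of meiosis, and recombination begins from these breaks. The annotation names no Spo11 probe, and the loss of the target was therefore not checked.

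Values are log2 ratios centred on the median of each array, so a change is relative to the typical probe of that array. The numerator of the ratio is not given in the labels. Arrays of opposite channel order correlated positively, with r from 0.471 to 0.925, so the submitters had already turned them. The source named first (ovary, 15 day, knockout, or gonad over reference) was taken as the likely numerator, since the flagellar gene Tekt2 was then at -4.68 in ovary against testis and at 5.74 in testis against the reference. The spermatid gene Oaz3 went the other way, at 0.79 and -2.20. With the opposite sign every direction below would be turned. In whole organs, fewer cells of a type and less RNA per cell cannot be told apart.

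The respiratory chain passes electrons from NADH (complex I) and succinate (complex II) through ubiquinone, complex III and cytochrome c to oxygen at complex IV, and pumps protons across the inner mitochondrial membrane. ATP synthase uses the returning protons to make ATP. Most subunits come from nuclear genes expressed in all tissues, but a few have testis isoforms. Cox6b2, which replaces Cox6b1 in cytochrome c oxidase of male germ cells and sperm, is the one with members of both kinds on these arrays.

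An array held values for 6452 to 14012 probes and for 42 to 62 members, and replicate 1 of ovary against testis was the lowest in both. Array numbers in the titles form 5 runs. Run 1 holds only knockout arrays, run 2 only 15 day arrays, and runs 3 to 5 the rest, with 2 more 15 day arrays in run 5. Cell type markers moved in every comparison. Of 8 meiotic prophase genes 6 fell in ovary against testis, 4 fell and 1 rose at 15 days, 5 fell in the knockout and 6 rose in testis against the reference. Of 4 spermatid and flagellum genes 3 fell at 15 days and 3 in the knockout, with medians of -2.61 and -4.21. In ovary against testis 3 of the 4 fell and 1 rose, and in testis against the reference 3 rose and 1 fell. Sertoli cell genes rose in 4 of 9 cases at 15 days and in 8 of 9 in the knockout. Genes of stroma and smooth muscle rose in 9 of 11 cases in each, with 1 lower in each. Over all genes 18% rose at 15 days and 26.7% in the knockout. Steroid cell genes rose in 5 of 5 cases in the knockout, whereas at 15 days 2 fell and 0 rose. In ovary against the reference 5 of 5 steroid cell genes and 3 of 4 oocyte genes rose. Knockout testis also had 3 of the 4 oocyte genes higher and 1 lower, while ovary against testis had 2 higher and 0 lower. At 15 days 1 oocyte gene was lower and 0 were higher. Ovary exceeded testis for 10 of 11 stroma and smooth muscle genes, with 1 lower, and for 4 of 5 steroid cell genes. Of 5 macrophage and leukocyte genes, 4 were higher and 1 lower in the knockout. No gene on a list of markers of striated muscle, heart and brown fat was tested. The part of these cell types in the results below was not tested.

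**Figure D1:**
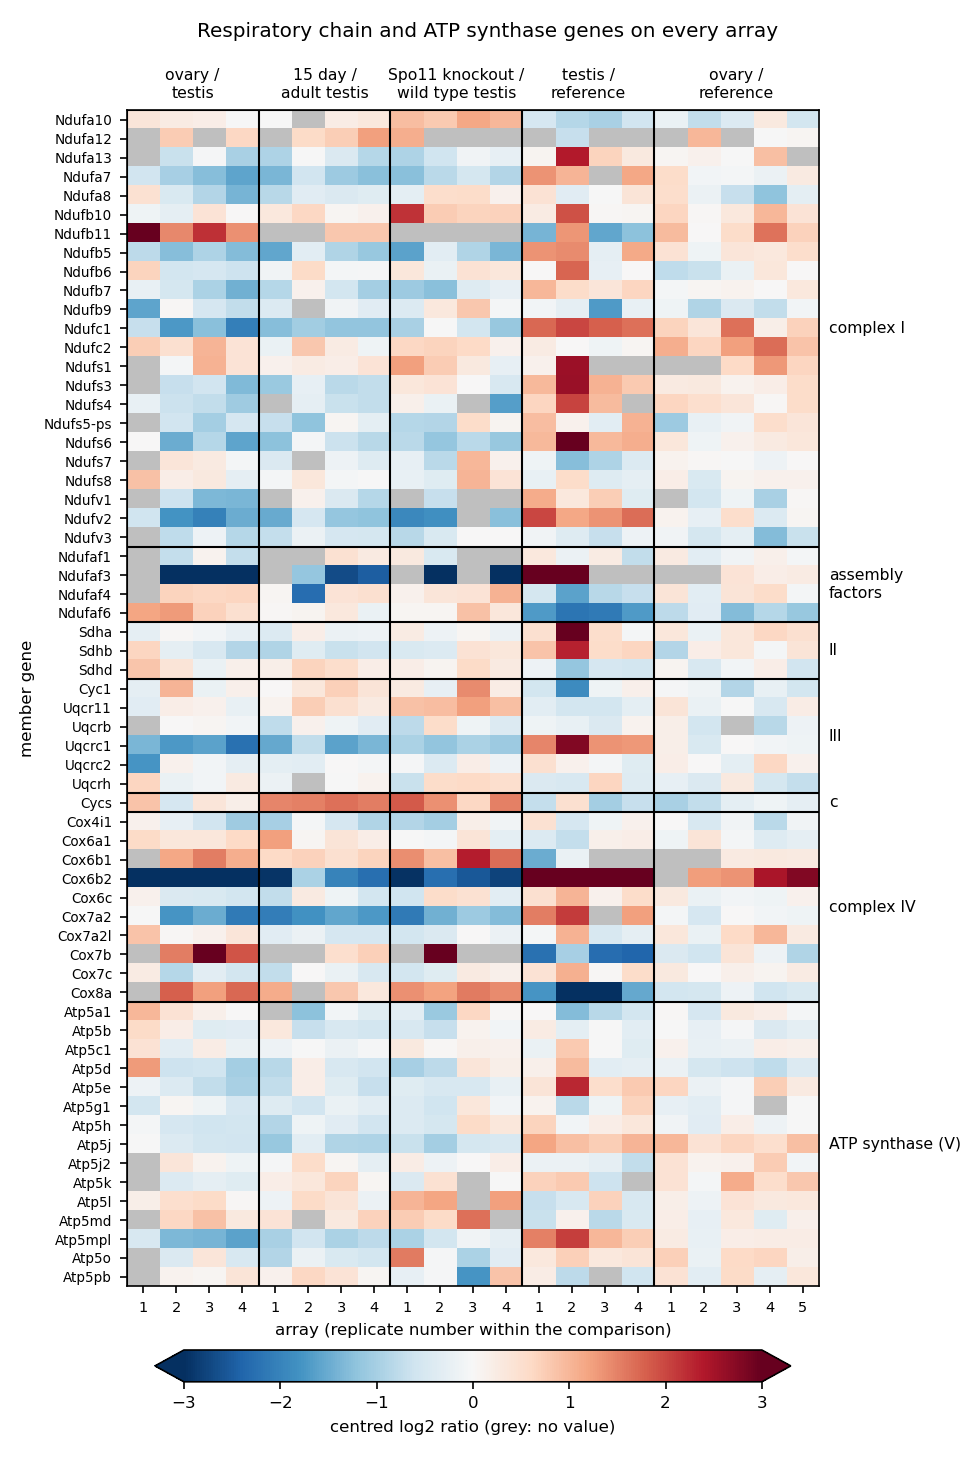
Centred log2 ratios of the 62 members (vertical axis, by complex) on the 21 arrays (horizontal axis, by comparison); red is higher and blue lower in the source named first, the colour scale ends at 3 in both directions, and grey has no value. Cox6b2 forms the strongest band, between -4.97 and -3.96 in ovary against testis and between 4.75 and 7.12 in testis against the reference.

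Between ovary and testis, members went both ways. Of 54 members 5 rose in ovary and 17 fell, where over all genes 22.4% rose and 36.5% fell; the median member was at -0.25 and the median gene at -0.18. At 15 days 4 rose and 14 fell (18% and 28.1% of all genes), with medians of -0.35 for members and -0.07 for all genes. In the knockout 8 rose and 10 fell (26.7% and 30.5% of all genes), with medians of -0.02 and -0.04. Testis against the reference had 19 higher and 8 lower (35.5% and 25.9% of all genes), with medians of 0.09 and 0.12, and in ovary against the reference 5 rose and 2 fell (9.54% and 13.4%), with medians of 0.01 and -0.06. All these calls are limma's moderated test with Benjamini-Hochberg adjusted p under 0.05 over all genes. The share of members called was below that of all genes in each comparison. The typical member also lay nearer to 0 than the typical gene: the median absolute log2 ratio was 0.41 against 0.72 in ovary against testis, 0.41 against 0.54 at 15 days, 0.31 against 0.68 in the knockout, 0.55 against 0.73 in testis against the reference and 0.26 against 0.30 in ovary against the reference.

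The counts depended on single arrays in 2 comparisons. Without replicate 4 of ovary against testis 13 members were called (50.2% of all genes). Without replicate 3 or 4 of the 15 day arrays 10 and 11 were (35.2% and 35.1% of all genes). Within runs, 24 of 54 members were called from the 2 ovary against testis arrays of run 4 (61.4% of all genes). At 15 days 5 of 46 were called in run 2 (22.1% of all genes) and 32 of 54 in run 5 (69.2%). Testis against the reference had 15 of 49 called in run 3 (44.7% of all genes). Ovary against the reference gave 0 of 53 in run 3 (2.78% of all genes) and 7 of 52 in run 5 (22.5%). The knockout arrays shared 1 run, so no second run could be set beside it. With all arrays scaled to 1 spread 14 members were called in ovary against testis (50.9% of all genes). The lost calls were those of Atp5e, Atp5h, Atp5j, Atp5md, Cox6a1, Ndufb9, Ndufs4 and Ndufv3. Scaling ended, in testis against the reference, the calls of Atp5a1, Cox6c, Cox7c, Ndufaf4 and Uqcr11, and a fit of those 4 arrays alone ended those of Ndufa13, Ndufb5, Ndufs7, Sdha and Sdhd too.

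**Figure D2:**
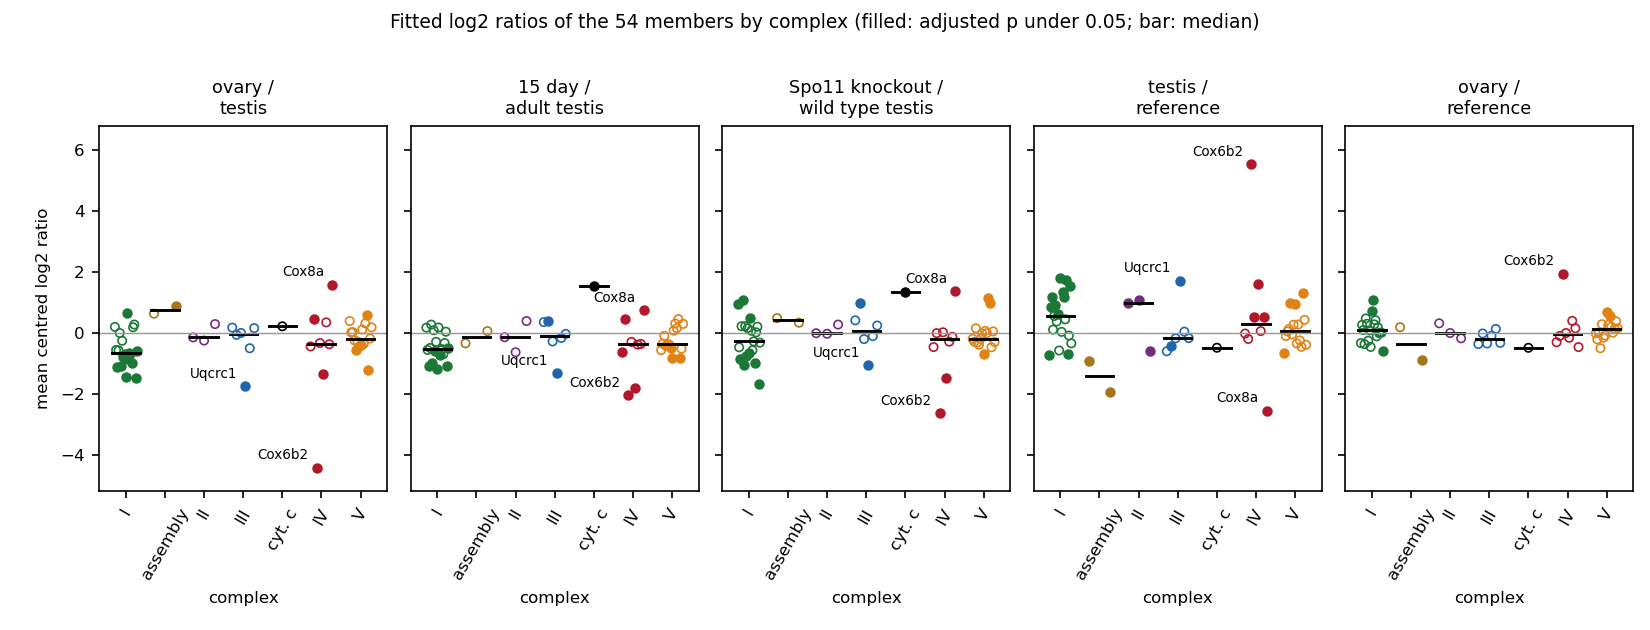
Mean centred log2 ratio (vertical axis) of each of the 54 members in the fit, by complex (horizontal axis) and comparison (panels); filled points passed adjusted p under 0.05 and bars are medians of a complex. Complex I lies mostly below 0 in ovary against testis, where 10 of its 19 members fell and 1 rose, while Cox6b2 and Cox8a mark the ends of complex IV.

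Cytochrome c oxidase (complex IV), which hands electrons to oxygen, held the highest and the lowest fitted ratio between ovary and testis. Cox6b2 was at -3.96, -4.70, -4.07 and -4.97 on the 4 ovary against testis arrays. Every array lay far below 0, and the fitted ratio was -4.42 ± 0.34 (SE; 21.5-fold lower in ovary, adjusted p = 1.58e-09 by limma). It was the 9th lowest of 4465 genes in that comparison. Cox6b2 in testis against the reference stood at 4.77, 7.12, 5.51 and 4.75. All 4 arrays were well above 0, with a mean of 5.54 ± 0.34 (46.4-fold, adjusted p = 5.64e-11 by limma), which made it the gene with rank 3 from the top.

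Cox6b2 was also lower in 15 day testis and in knockout testis. In both, as in ovary against testis, 3 of 4 spermatid and flagellum markers fell, and their part was not tested. At 15 days the Cox6b2 arrays read -2.95, -0.96, -2.01 and -2.26, all below 0, with replicate 2 the nearest to it. The fitted value was -2.04 ± 0.34 (adjusted p = 5.85e-05 by limma), and it was -1.96 in run 2 and -2.13 in run 5. In the knockout the arrays read -2.97, -2.26, -2.54 and -2.77. They lay close together, around -2.63 ± 0.34 (adjusted p = 1.94e-06 by limma). Ovary also held more Cox6b2 signal than the reference, at 1.25, 1.34, 2.45 and 2.77 on the 4 arrays with a value. The mean of 1.95 ± 0.34 (adjusted p = 2.54e-04 by limma) became 2.98 when all arrays were scaled to 1 spread. In ovary against the reference the 4 spermatid and flagellum markers had 2 members that rose, Cetn4 at 1.07 and Rsph1 at 1.47. Their part in the ovary value of Cox6b2 was not tested, nor was the part of any signal shared between its probe and that of Cox6b1.

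Cox6b1, the isoform of other tissues, moved the opposite way in ovary against testis, at 15 days and in the knockout. It read 1.17, 1.53 and 1.08 in ovary against testis. All 3 arrays were above 0, at 1.26 ± 0.25 (adjusted p = 5.57e-04 by limma in the second fit). At 15 days it read 0.59, 0.69, 0.48 and 0.67, with a mean of 0.61 ± 0.22 (adjusted p = 0.0351). In the knockout its arrays read 1.39, 0.91, 2.36 and 1.67, with a mean of 1.58 ± 0.22 (adjusted p = 1.30e-05). In each of these 3 comparisons no array of Cox6b1 overlapped one of Cox6b2. On the same array, Cox6b2 minus Cox6b1 averaged -5.84 ± 0.23 (SD, n = 3) in ovary against testis, -2.65 ± 0.80 (n = 4) at 15 days and -4.22 ± 0.74 (n = 4) in the knockout. Against the reference, Cox6b1 in testis had 2 values, -1.49 and -0.19, too few for a test, and in ovary it read 0.28, 0.30 and 0.26, which did not pass the threshold.

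The promoters of this pair differ in the letters searched, and they are shown for that reason together with that of Cycs, the somatic cytochrome c, which holds the other 2 motifs. Each stretch is the 250 bases before the RefSeq transcription start, on the gene's own strand in assembly GRCm38.p6, and capitals mark a motif match. The positions are chr7:4753095-4753344 (minus strand) for Cox6b2, chr7:30626115-30626364 (minus strand) for Cox6b1 and chr6:50566570-50566819 (minus strand) for Cycs.
Cox6b2: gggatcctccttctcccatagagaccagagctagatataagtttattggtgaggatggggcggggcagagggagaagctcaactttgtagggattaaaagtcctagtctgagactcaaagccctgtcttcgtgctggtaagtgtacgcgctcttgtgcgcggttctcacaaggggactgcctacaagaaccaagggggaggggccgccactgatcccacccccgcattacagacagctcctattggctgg
Cox6b1: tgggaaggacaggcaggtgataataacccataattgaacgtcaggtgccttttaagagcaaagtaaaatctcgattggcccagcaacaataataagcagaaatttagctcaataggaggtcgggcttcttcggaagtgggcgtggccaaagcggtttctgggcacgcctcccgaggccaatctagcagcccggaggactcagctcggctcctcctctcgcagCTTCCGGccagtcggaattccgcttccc
Cycs: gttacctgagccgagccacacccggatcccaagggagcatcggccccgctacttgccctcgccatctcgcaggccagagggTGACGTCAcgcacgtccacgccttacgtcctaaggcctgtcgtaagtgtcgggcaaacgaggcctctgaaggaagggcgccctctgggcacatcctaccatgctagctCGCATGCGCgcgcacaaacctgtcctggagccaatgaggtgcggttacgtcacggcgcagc
The motifs searched on both strands were GCGCANGCG (as bound by NRF1), TGACGTCA (as bound by CREB) and CCGGAAG (as bound by ETS factors such as GABP), and none of them overlaps another in the stretches shown. Over whole windows of 300 bases, which also reach 50 bases past the start, 51 of the 62 members matched a promoter by symbol. GCGCANGCG was in 15 of these 51 (29.4%), against 7.03% of the 27025 genes with a window and 18.2% of the 3660 tested genes with one. CCGGAAG was in 18 (35.3%), against 9.93% and 23.6%, and TGACGTCA in 2 (Cycs and Ndufa10; 3.92%), against 2.03% and 3.88%. A match is a string of letters and not a measured site. Cox6b2 had no match in its window, Cox6b1 had CCGGAAG, and Cycs had both GCGCANGCG and TGACGTCA.

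**Figure D3:**
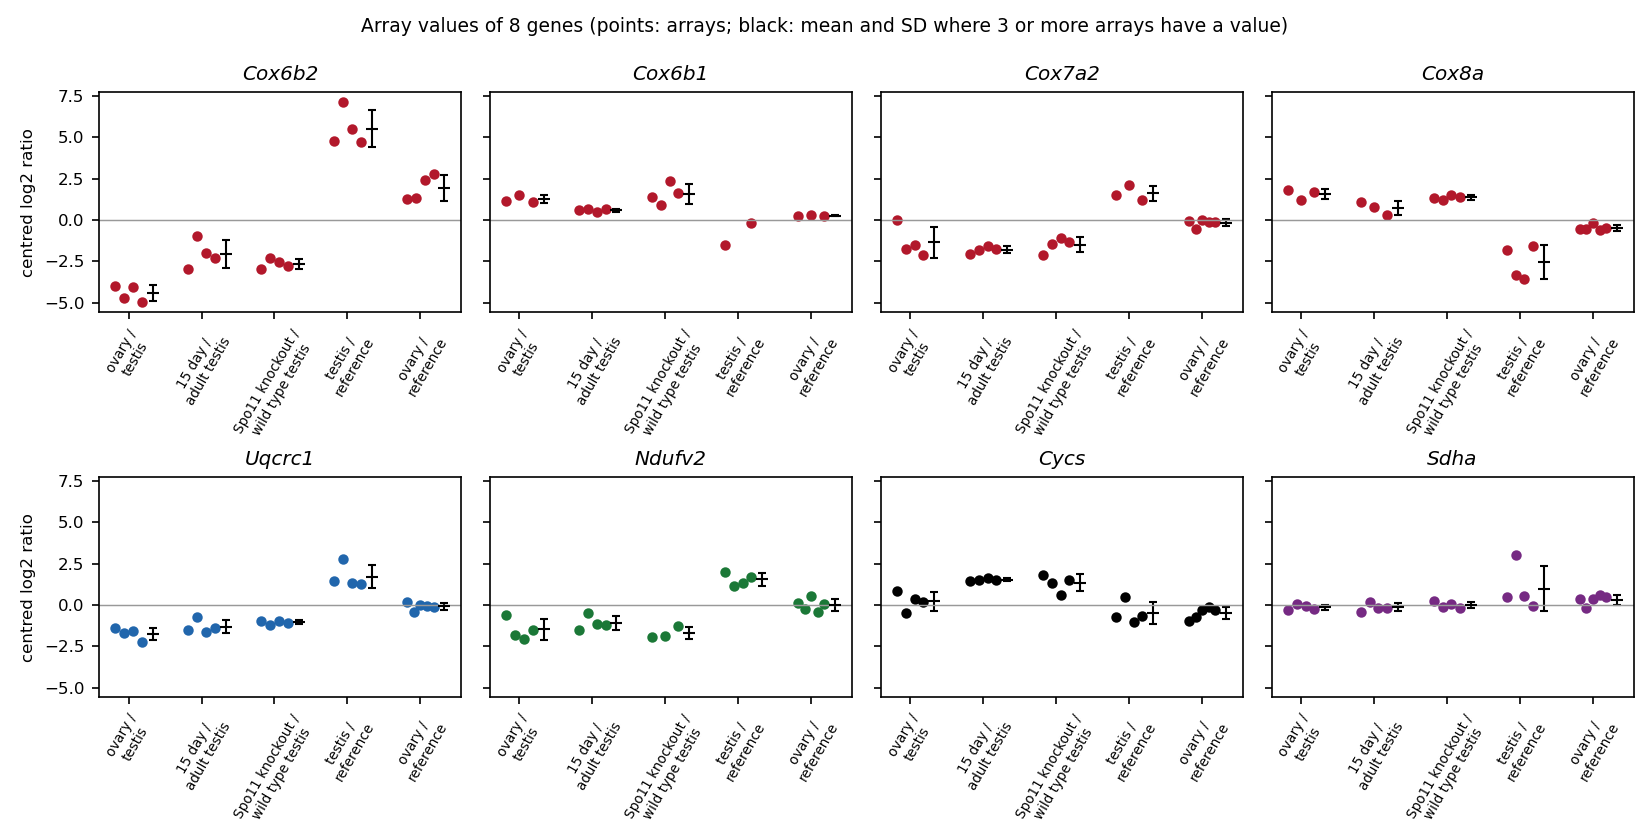
Centred log2 ratio (vertical axis) of 8 genes on each array (points), by comparison (horizontal axis), with the mean and SD in black where 3 or more arrays have a value. Cox6b2, Cox7a2, Uqcrc1 and Ndufv2 lie below 0 in ovary against testis, at 15 days and in the knockout, Cox6b1 and Cox8a lie above 0 there, Cycs is high at 15 days and in the knockout, and Sdha stays near 0 apart from 3.0 on replicate 2 of testis against the reference.

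Cox7a2, a small subunit of complex IV, was the other strongly lowered gene of the complex. In ovary against testis it read -0.02, -1.76, -1.49 and -2.11. Replicate 1 sat at 0 and the other three well below, for a fitted -1.34 ± 0.24 (adjusted p = 7.92e-05 by limma). At 15 days it read -2.07, -1.82, -1.55 and -1.73 (-1.79 ± 0.24, adjusted p = 5.35e-06), and in the knockout -2.11, -1.43, -1.09 and -1.30 (-1.48 ± 0.24, adjusted p = 3.07e-05). All 8 of these arrays were below -1. Testis exceeded the reference on all 3 arrays with a value, at 1.53, 2.10 and 1.24 (adjusted p = 4.42e-05 by limma), and ovary did not differ past the threshold (-0.15). Its relative Cox7a2l, a factor of respiratory supercomplexes, passed in none of the 5 comparisons, with means from -0.38 to 0.40. On the same array Cox7a2 lay below Cox7a2l by 1.69 ± 0.66 (SD, n = 4) in ovary against testis, 1.41 ± 0.33 at 15 days and 1.20 ± 0.25 in the knockout.

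Cox8a, the ubiquitous form of the smallest subunit, went against both. It read 1.80, 1.23 and 1.73 in ovary against testis (1.59 ± 0.29, adjusted p = 1.05e-04 by limma) and 1.36, 1.21, 1.55 and 1.42 in the knockout (1.39 ± 0.25, adjusted p = 1.06e-04). Testis against the reference gave -1.78, -3.32, -3.54 and -1.54, the lowest member there at -2.54 ± 0.25 (5.84-fold, adjusted p = 4.86e-08). All 11 of these arrays shared the direction of their group. At 15 days it read 1.12, 0.82 and 0.31, and the fitted 0.75 passed (adjusted p = 0.0408 by limma) but not without replicate 1 (0.56) or replicate 3 (0.71). Ovary against the reference had 5 arrays, which ran from -0.60 to -0.16 and did not pass. No Cox8b or Cox8c met the rule.

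Cox7b, on the X chromosome, had too few values for the main fit. In ovary against testis it read 1.53, 3.38 and 1.89 (2.27 ± 0.34, adjusted p = 4.81e-05 by limma in the second fit), and in testis against the reference -2.24, -0.99, -2.28 and -2.37 (-1.97 ± 0.30, adjusted p = 4.26e-05). Ovary was thus higher on all 3 arrays and testis lower on all 4. The knockout gave 1 value, 5.13, and 15 days 2, 0.51 and 0.72, which were not tested. The remaining complex IV members moved less. Cox6a1 was at 0.46 in ovary against testis and 0.47 at 15 days, calls that ended without any 1 of the 4 ovary against testis arrays (0.41 to 0.50) and without 15 day replicate 1, 3 or 4 (0.22, 0.50 and 0.56). Cox4i1, the main isoform of subunit 4, was at -0.62 at 15 days, a call lost without replicate 1 (-0.49), 3 (-0.66) or 4 (-0.52). Cox6c and Cox7c rose in testis against the reference, by 0.54 and 0.52, and neither call survived the loss of replicate 2 (0.38 and 0.34) or replicate 4 (0.54 and 0.51), nor, for Cox6c, of replicate 1 (0.56).

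Cytochrome c, the mobile carrier between complexes III and IV, is encoded in somatic cells and early germ cells by Cycs. At 15 days Cycs read 1.46, 1.52, 1.65 and 1.53, all close together. The mean was 1.54 ± 0.23 (2.91-fold, adjusted p = 1.55e-05 by limma), with 1.49 in run 2 and 1.59 in run 5, and ranked 33 from the top of 4465 genes. In the knockout it read 1.83, 1.36, 0.62 and 1.52 (1.33 ± 0.23, adjusted p = 5.12e-05). Again every array was above 0. Ovary and testis were not separated by Cycs, whose arrays read 0.85, -0.50, 0.37 and 0.17, a mean of 0.22 that did not pass. Nor did the values of -0.48 in testis and -0.48 in ovary against the reference. The testis cytochrome c gene Cyct was not named on the array and was not analysed here.

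Complex III moves electrons from ubiquinol to cytochrome c. Its core subunit Uqcrc1 was among the most lowered members in ovary: -1.38, -1.72, -1.60 and -2.24, with a fitted -1.73 ± 0.21 (3.33-fold, adjusted p = 3.74e-07 by limma). It read -1.53, -0.74, -1.61 and -1.36 at 15 days (-1.31 ± 0.21, adjusted p = 2.50e-05) and -0.95, -1.20, -0.94 and -1.08 in the knockout (-1.04 ± 0.21, adjusted p = 1.96e-04). All 12 arrays of the 3 comparisons were below 0. The 2 probes had knockout means of -1.54 and -0.55. With 1 probe per gene the probe at -0.55 was the one used, and the knockout call ended. Testis exceeded the reference at 1.47, 2.77, 1.34 and 1.30, with replicate 2 apart from the others (1.72 ± 0.21, adjusted p = 3.33e-07). Ovary did not differ from the reference past the threshold (-0.09).

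The partner core subunit Uqcrc2 did not pass in any comparison, with means between -0.50 and 0.14. Its ovary against testis arrays read -1.78, 0.14, -0.07 and -0.28, so replicate 1 alone was far from 0. Uqcrc1 lay below Uqcrc2 on all 4 arrays at 15 days (by 1.15 ± 0.51, SD) and in the knockout (by 0.94 ± 0.14). In ovary against testis the mean difference was -1.24 ± 1.11, from -1.96 to 0.40, and replicate 1 went the other way. Uqcr11, a small accessory subunit, rose in the knockout at 0.89, 0.92, 1.23 and 0.90 (0.98 ± 0.16, adjusted p = 1.71e-05 by limma). Its 15 day value of 0.40 passed, but not without replicate 2 (0.28), 3 (0.37) or 4 (0.44), and its -0.43 in testis against the reference was lost without replicate 2 or 3 (-0.39 each). Cyc1, the cytochrome c1 subunit, passed nowhere and had wide arrays, such as -0.55, -1.88, -0.12 and 0.16 in testis against the reference. Uqcrb and Uqcrh also passed in no comparison.

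Complex I, the NADH dehydrogenase, has the most members. In ovary against testis 10 of its 19 tested members fell and 1 rose, with a median of -0.67; at 15 days 7 fell and 0 rose (-0.53). In the knockout 6 fell and 3 rose (-0.28). Against the reference 9 were higher and 2 lower in testis (0.56), and 2 higher and 1 lower in ovary (0.09). The share called in either direction was 57.9% in ovary against testis, 36.8% at 15 days, 47.4% in the knockout, 57.9% in testis and 15.8% in ovary against the reference. Over all genes it was 59.0%, 46.1%, 57.2%, 61.4% and 22.9% in the same order. The gap was small in ovary against testis and in testis against the reference, and it was not tested. The pooled share also hides direction. Lower in ovary than in testis were 10 of the 19, a larger part than the 36.5% of all genes. Only 1 of the 19 was higher there, against 22.4% of all genes. The first count depended on replicate 4, without which the calls of Ndufb9, Ndufs3, Ndufs4, Ndufs6 and Ndufv3 were lost. Of all genes 50.2% were then called in either direction. The 7 of 19 that fell at 15 days stand beside 28.1% of all genes, and the 6 of 19 in the knockout beside 30.5%. Ndufv2, an iron-sulfur subunit at the NADH end, read -0.60, -1.79, -2.03 and -1.50 in ovary against testis (-1.48 ± 0.22, adjusted p = 8.33e-06 by limma) and -1.93, -1.85 and -1.25 in the knockout (-1.68 ± 0.25, adjusted p = 1.28e-05). At 15 days it read -1.52, -0.50, -1.16 and -1.20 (-1.09 ± 0.22, adjusted p = 3.92e-04), a call not made in run 2 alone (-1.01). Testis was above the reference at 2.01, 1.16, 1.34 and 1.68 (adjusted p = 4.02e-06), and ovary was at 0.01. Every Ndufv2 array of the 3 comparisons within gonads lay below 0 and every testis against reference array above 1.

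Ndufc1, a membrane arm accessory subunit, read -0.70, -1.72, -1.25 and -2.05 in ovary against testis (-1.43 ± 0.22, adjusted p = 1.14e-05 by limma). At 15 days its 4 arrays lay between -1.28 and -1.04 (-1.17 ± 0.22, adjusted p = 1.94e-04), a narrow group. Testis against the reference gave 1.73, 2.0, 1.80 and 1.66 (1.80 ± 0.22, adjusted p = 4.73e-07), as close together, and the highest of the 54 members in the main fit after Cox6b2. In the knockout it read -0.98, -0.02, -0.55 and -1.13, with replicate 2 at 0. The knockout value of -0.67 passed but was lost without replicate 1 (-0.57) or 4 (-0.52) and when arrays were scaled to 1 spread (-0.59). Ndufc1 in ovary against the reference was at 0.71 (1.14 when scaled), a call that ended without replicate 3 (0.47), whose 1.66 stood above the other four.

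Ndufa7, an accessory subunit of the matrix arm, fell in ovary (-1.11 ± 0.18, adjusted p = 2.43e-05 by limma), at 15 days (-1.07 ± 0.18, adjusted p = 6.34e-05; not called in run 2 alone, -0.97) and in the knockout (-0.87 ± 0.18, adjusted p = 3.62e-04), and rose in testis against the reference (1.18 ± 0.21, adjusted p = 5.71e-05). Its arrays were below 0 in 12 of 12 cases in the first 3 and above 1 in 3 of 3 in the last. Ndufb5, in the membrane arm, was at -1.08, -0.97 and -1.05 in the same 3 comparisons and at 0.91 in testis against the reference, where replicate 3 read -0.27 and the others 1.14 to 1.41. The 15 day call was not made in run 2 (-0.94), nor the testis against reference call in run 3 (0.43) or in a fit of those 4 arrays alone. Ndufb7 was at -0.78, -0.58, -0.74 and 0.64. Its 15 day call was lost without replicate 1 (-0.49), 3 (-0.59) or 4 (-0.43), and that against the reference without replicate 1 (0.52).

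Ndufs6, a zinc-binding subunit of the NADH end, was at -0.98 in ovary, a call lost without replicate 2 (-0.81) or 4 (-0.78), and at -0.97 in the knockout, with arrays of -0.80, -1.15, -0.80 and -1.13; that call was lost without replicate 2 (-0.91) or 4 (-0.92). Testis against the reference gave 0.98, 3.93, 0.97 and 1.08, and the mean of 1.74 became 1.01 without replicate 2. Ndufs3, a core subunit next to the quinone site, was at -0.86 in ovary (-0.63 and not called without replicate 4), at -0.72 at 15 days (not called without replicate 1, 3 or 4, at -0.59, -0.69 and -0.72) and at 1.35 ± 0.23 in testis against the reference, where replicate 2 read 2.60 and the others 0.79 to 1.05. In the knockout its arrays straddled 0 and it did not pass. Ndufs4 was at 1.20 in testis against the reference, and 0.79 without replicate 2. Its ovary value of -0.67 did not pass without replicate 2 (-0.68), 3 (-0.64) or 4 (-0.54). Ndufb9 and Ndufv3 fell in ovary, by 0.69 and 0.60, with the calls lost without replicate 1 (-0.40) or 4 (-0.68) and without replicate 2 (-0.51) or 4 (-0.47). Ndufv3 was also at -0.48 at 15 days, lost without replicate 1 (-0.40), 3 (-0.47) or 4 (-0.47).

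Some complex I genes rose. Ndufc2, which pairs with Ndufc1 in the membrane arm, read 0.73, 0.49, 1.03 and 0.40 in ovary against testis (0.66 ± 0.18, adjusted p = 0.00336 by limma). Against the reference its ovary arrays read 1.09, 0.65, 1.23, 1.68 and 0.85 (1.10 ± 0.16, adjusted p = 3.21e-05; 1.69 when arrays were scaled to 1 spread), the highest member there after Cox6b2. All 9 of these arrays were above 0, while testis against the reference was at 0.04. In the knockout it was at 0.50, a call lost without replicate 1 (0.46) or 2 (0.45) or 3 (0.47). Ndufa10 rose in the knockout at 0.93, 0.79, 1.17 and 0.99 (0.97 ± 0.16, adjusted p = 2.75e-05) and fell in testis against the reference, by 0.73. Ndufb10 rose in the knockout at 2.16, 0.76, 0.67 and 0.69 (1.07 ± 0.26, adjusted p = 0.00159; 0.71 without replicate 1). Ndufa13 was at 0.85 in testis against the reference (0.35 and not called without replicate 2), Ndufs7 at -0.68 (-0.49 and not called without it), and Ndufv3 at -0.58 in ovary against the reference (not called without replicate 4 or 5, at -0.40 and -0.56). Ndufa8, Ndufb6 and Ndufs8 passed in none of the 5 comparisons.

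Among the complex I members outside the main fit, the X-linked Ndufb11 read 3.71, 1.44, 2.18 and 1.37 in ovary against testis (2.17 ± 0.43, adjusted p = 4.47e-04 by limma in the second fit). Testis against the reference was split, at -1.40, 1.33, -1.57 and -1.24, and did not pass. Ndufv1, the subunit that binds FMN, read -0.62, -1.34 and -1.38 in ovary against testis (-1.11 ± 0.29, adjusted p = 0.00397), and Ndufa12 0.58, 0.73 and 1.23 at 15 days (0.85 ± 0.25, adjusted p = 0.0204). Ndufs1, the largest subunit, passed in no comparison it could be tested in. The member named Ndufs5-ps, which is in the main fit and in the complex I counts, is a pseudogene by its symbol. It passed nowhere, and signal from Ndufs5 cannot be told apart from its own.

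Among the 4 assembly factors 1 differed almost as much as Cox6b2 between ovary and testis. Ndufaf3, needed early in complex I assembly, read -3.40, -4.35 and -4.46 in ovary against testis (-4.07 ± 0.30, 16.8-fold, adjusted p = 1.19e-07 by limma in the second fit). At 15 days it read -1.17, -2.69 and -2.47 (-2.11 ± 0.29, adjusted p = 7.50e-05). The knockout gave 2 arrays, -4.01 and -3.33, and testis against the reference 2, 3.79 and 4.21, too few for a test. Ovary against the reference gave 0.42, 0.19 and 0.24, which did not pass. All 10 arrays of the first 4 comparisons lay more than 1 from 0. Ndufaf6 went the other way, at 1.18, 1.28, 0.69 and 0.47 in ovary against testis (0.90 ± 0.18, adjusted p = 2.04e-04) and -1.69, -2.18, -2.11 and -1.70 in testis against the reference (-1.92 ± 0.18, adjusted p = 1.12e-08). Ovary was also below the reference, by -0.88 ± 0.16 (adjusted p = 3.80e-04; -1.38 when scaled), and 15 days and the knockout did not pass. Ndufaf4 was at -0.91 in testis against the reference, a call lost without replicate 2 (-0.68), and Ndufaf1 passed nowhere.

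Complex II, succinate dehydrogenase, also works in the citric acid cycle. None of Sdha, Sdhb and Sdhd passed in ovary against testis, at 15 days or in the knockout. Sdha, the flavoprotein, was at -0.14, -0.14 and -0.005 there; Sdhb, the iron-sulfur subunit, at -0.25, -0.63 and -0.02; and Sdhd, a membrane anchor, at 0.30, 0.40 and 0.28. Sdha in testis against the reference read 0.47, 3.0, 0.53 and -0.07, and its 0.98 was 0.31 and not called without replicate 2. Sdhb read 0.86, 2.30, 0.54 and 0.65 (1.09 ± 0.27, adjusted p = 0.00143 by limma; 0.68 and still called without replicate 2). Sdhd read -0.16, -1.17, -0.51 and -0.56, and its -0.60 was not called without replicate 2 (-0.41). Replicate 2 was thus the farthest from 0 for all 3 genes. In ovary against the reference none passed.

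ATP synthase had few calls for its size. In ovary against testis 1 of its 15 members rose and 4 fell, with a median of -0.18; at 15 days 0 rose and 3 fell (-0.37), and in the knockout 2 rose and 1 fell (-0.19). Against the reference 3 were higher and 1 lower in testis (0.05), and 2 higher and 0 lower in ovary (0.13). The share called was 33.3%, 20.0%, 20.0%, 26.7% and 13.3% in that order, below the share of all genes given for complex I in each comparison, while the 15 day median lay farther from 0 than that of all genes (-0.07). The most lowered was Atp5mpl, a small membrane subunit, at -0.47, -1.34, -1.40 and -1.61 in ovary against testis (-1.21 ± 0.20, adjusted p = 2.97e-05 by limma) and -0.98, -0.58, -0.94 and -0.79 at 15 days (-0.82 ± 0.20, adjusted p = 0.00222; not called in run 2, -0.78). Testis exceeded the reference at 1.50, 2.08, 1.0 and 0.73 (1.33 ± 0.20, adjusted p = 7.97e-06; 0.86 in run 3). All 12 arrays kept the direction of their group, and in the knockout, at -0.47, Atp5mpl did not pass.

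Atp5j, of the peripheral stalk, fell at 15 days (-0.82 ± 0.16, adjusted p = 2.25e-04 by limma; not called in run 2, -0.73) and in the knockout (-0.67 ± 0.16, adjusted p = 0.00101). It rose against the reference in both gonads: 1.19, 0.90, 0.73 and 1.02 in testis (0.96 ± 0.16, adjusted p = 1.98e-05) and 0.99, 0.43, 0.64, 0.51 and 0.90 in ovary (0.69 ± 0.14, adjusted p = 9.82e-04; 1.12 when scaled). The 2 sets of arrays overlapped, and the ovary against testis value of -0.39 was not called without replicate 2 (-0.38), 3 (-0.34) or 4 (-0.33). In the knockout Atp5l and Atp5md, small membrane subunits, read 1.03, 1.18 and 1.22, and 0.77, 0.58 and 1.65. Their means were 1.14 ± 0.22 (adjusted p = 1.99e-04) and 1.0 ± 0.22 (adjusted p = 9.20e-04). Atp5md was also at 0.60 in ovary against testis, not called without replicate 2 (0.58) or 3 (0.46). A second Atp5md probe with too few values for the fit went the other way, at -1.22 on 1 knockout array, -0.69 on 1 ovary against testis array and a mean of -0.38 on 3 arrays at 15 days, so the direction of Atp5md rests on 1 probe.

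In the catalytic part of ATP synthase calls were made for some subunits and not for others. Atp5b, the beta subunit, passed in no comparison, with means from -0.35 to 0.02, nor did Atp5c1, Atp5d or the ring subunit Atp5g1. Atp5a1, the alpha subunit, was at -0.67 in testis against the reference, lost without replicate 2 (-0.46) or 3 (-0.61). Atp5e, the epsilon subunit, was at 0.99 ± 0.24 there, and at 0.57 and still called without replicate 2, whose 2.25 stood apart. Its -0.57 in ovary was not called without replicate 2 (-0.62), 3 (-0.51) or 4 (-0.43). Atp5h passed at -0.43 in ovary against testis and -0.48 at 15 days, each lost without 3 of the 4 arrays in turn (replicates 2, 3 and 4, at -0.41, -0.37 and -0.39, and replicates 1, 3 and 4, at -0.35, -0.53 and -0.45). Atp5k was at 0.57 in ovary against the reference, lost without replicate 1 (0.60), 3 (0.43), 4 (0.57) or 5 (0.51). Atp5j2, Atp5o and Atp5pb passed in none of the 5 comparisons.

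**Figure D4:**
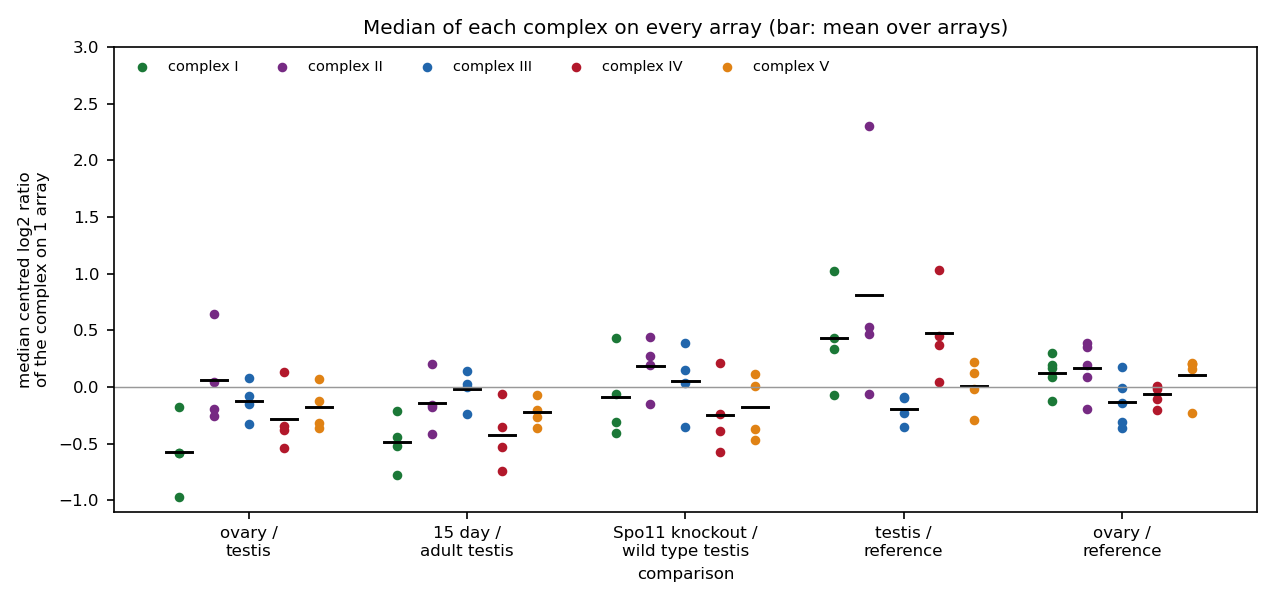
Median centred log2 ratio over the members of complexes I to V on each array (vertical axis; points) by comparison (horizontal axis), with bars at the mean over arrays. Complex I is below 0 on all 4 arrays of ovary against testis and of 15 day against adult testis, and complex II reaches 2.30 on replicate 2 of testis against the reference.

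Taken array by array, the median of complex I was -0.17, -0.58, -0.58 and -0.97 in ovary against testis and -0.77, -0.21, -0.44 and -0.52 at 15 days. That of ATP synthase was 0.07, -0.31, -0.12 and -0.36, and -0.26, -0.07, -0.20 and -0.36. The complex I median was below that of ATP synthase on all 8 arrays, by 0.40 ± 0.17 (SD, n = 4) in ovary against testis and 0.26 ± 0.17 (n = 4) at 15 days. In the knockout the 2 complexes did not keep an order: complex I minus ATP synthase was 0.09 ± 0.18, above 0 on 2 of 4 arrays. In testis against the reference it was 0.42 ± 0.42, above 0 on 3 of 4, and in ovary against the reference 0.02 ± 0.11. These are descriptions of medians over genes that share arrays and were given no test.

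The ovary to testis ratio was also had through the reference, on 9 other arrays. By that route 5 of 54 members were higher and 10 lower in ovary (17.6% and 28.7% of all genes). Cox6b2 was at -3.58 ± 0.48 (adjusted p = 5.84e-06 by limma), and at -1.70 when arrays were scaled to 1 spread. Uqcrc1 was at -1.81 ± 0.28. In run 3 alone Uqcrc1 was at -1.455, and at -2.87 in run 5 alone, where the only testis array was replicate 2. Cox7a2 was at -1.78 ± 0.36, Ndufs6 at -1.56 ± 0.46 (-0.83 without testis replicate 2), Ndufv2 at -1.54 ± 0.30 and Cox8a at 2.08 ± 0.34. Sdhb was at -1.09 by this route, a call lost without testis replicate 2 (-0.68) or ovary replicate 1 (-0.87). The contrast of direct minus indirect ratios called 0 members and 0% of all genes by limma. At an unadjusted limma p under 0.05 it held 0 members and 74 genes (1.66%). Members differed between the 2 routes by -0.84 (Cox6b2) to 0.84, and the lack of calls does not show that the routes are alike. The indirect ratio of Ndufb11 was 1.49 (adjusted p = 0.0483 in the second fit) and that of Cox7b 1.63 ± 0.39 (adjusted p = 0.00415).

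The knockout effect minus the 15 day effect, which tests whether a member moved differently in the 2 kinds of testis, called 0 members and 2.4% of all genes (107) by limma. The lowest adjusted p of a member was 0.0922, and at an unadjusted p under 0.05 there were 5 members (9.26%) and 662 genes (14.8%). For single members such as Cycs, at 1.54 and 1.33, a difference was not detected, which does not show that the values are alike. The 2 groups share no run of array numbers, so run and group cannot be told apart in this contrast.

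Other mitochondrial genes, from lists chosen with earlier results known, are given for comparison. Of 10 respiratory chain assembly factors that are no members, 3 rose and 3 fell in ovary against testis, 2 and 1 at 15 days, and 3 and 1 in the knockout. The called shares of 60%, 30.0% and 40.0% compare with 59.0%, 46.1% and 57.2% of all genes. Uqcc2, for complex III, was at -1.51, -1.42 and -1.28, and Oxa1l, the inner membrane insertase, at 1.16, 0.53 and 1.33. Of 37 mitochondrial ribosomal protein genes (symbols that start with Mrpl or Mrps) 2 rose and 10 fell, 4 rose and 14 fell, and 4 rose and 11 fell in the same order, with medians of -0.41, -0.40 and -0.33 (32.4%, 48.6% and 40.5% called). Of 16 pyruvate dehydrogenase and citric acid cycle genes 5 rose and 4 fell, 4 and 4, and 5 and 5 (56.2%, 50% and 62.5%). The 7 biogenesis genes were split, with 1 higher and 4 lower in ovary against testis and 2 each way both at 15 days and in the knockout. The called shares were 71.4%, 57.1% and 57.1%. Among them Tfam, the mitochondrial transcription factor, was at -2.97, -3.30 and -3.08, and rose in testis against the reference, by 2.23. Nrf1 was at -0.50, -0.05 and -0.26, of which only the first passed. Of 7 carrier, pore and adenylate kinase genes 4 rose and 2 fell in ovary against testis, 2 and 2 at 15 days, and 2 and 1 in the knockout (85.7%, 57.1% and 42.9%), with Vdac2 at -2.03 and Slc25a5 at 1.27 in the first. Of 14 import genes 0 rose and 6 fell, 2 and 4, and 4 and 3 (42.9%, 42.9% and 50%), with medians of -0.19, -0.01 and 0.14, and Tomm22 was at -2.28 in ovary against testis.

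Of the members in the fit 11 had 2 or more probes, and for 7 of them (Atp5b, Atp5c1, Atp5h, Cox4i1, Cox7a2l, Sdha and Uqcrc1) the probe means had opposite signs in at least 1 comparison. For Uqcrc1 this was ovary against the reference alone, at -0.18 and 0.12. For Atp5b the probes spanned -0.71 to 0.35 at 15 days, so its mean there hides a disagreement between probes. In the comparisons with a call, the probes of Ndufb5, Ndufb7 and Uqcrc1 had the same sign, such as -1.92 and -1.60 for Uqcrc1 in ovary against testis.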

How the data were processed

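Per the values themselves, which have both signs and lie around 0, the deposited table was taken to hold log2 ratios of 1 RNA source over the other. No label or header names that unit. Scanner, background correction and dyes are not given in the sources used here, and dim probes could not be removed. Of 16128 probes, 9604 carry 1 gene symbol in the deposited platform annotation. Each array was centred on its median. Gene values are means per array over probes with a value on 3 or more arrays of every group. All 21 arrays were fitted in limma 3.58.1 (R 4.3.3) with a coefficient per comparison, and Benjamini-Hochberg adjustment ran over all 4465 genes, with a threshold of 0.05. The number of arrays limits the precision. The second fit used probes with 3 arrays of that comparison. Scripts were tested on simulated data.

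Members, gene lists and motifs were chosen with earlier results of these data known. Members named with values are, for each comparison, the 5 highest and 5 lowest called, the X-linked ones, isoform pairs, all Sdh genes, Cycs and Cyc1; the other called members are named for completeness. Promoters are RefSeq sequences of GRCm38.p6. The alternatives were other probe filters, no centring, scaled arrays, 1 probe per gene, channel order and run terms, single runs and leaving out each array.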

Additional observations from a re-analysis of the deposited data

Results flagged for a closer look

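In 24 of 239 sets of 4 or 5 array values of 1 member, the highest or the lowest array stood apart from the others by Dixon's test at its 95% critical value, where chance gives about 1 in 20. Of these, 11 lay in testis against the reference, 7 of them on replicate 2, the array with the widest spread of all probes. On that replicate Ndufs6 read 3.93 (the other arrays 0.97 to 1.08), Uqcrc1 2.77 (1.30 to 1.47), Ndufs3 2.60 (0.79 to 1.05), Ndufb10 1.90 (0.04 to 0.24), Ndufb6 1.74 (-0.24 to 0.02), Atp5o 0.72 (0.32 to 0.38) and Ndufs8 0.54 (-0.38 to -0.23). On replicate 3 of the same comparison Ndufb9 read -1.69 (-0.28 to -0.09), Ndufb5 -0.27 (1.14 to 1.41), Atp5l 0.69 (-0.69 to -0.47) and Uqcrh 0.64 (-0.48 to -0.39).

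In the knockout the values apart were Ndufb10 at 2.16 and Uqcrh at -0.66 on replicate 1, Ndufb6 at -0.20 on replicate 2, Uqcr11 at 1.23 on replicate 3 and Ndufc2 at 0.13 on replicate 4. At 15 days they were Ndufaf4 at -2.29 (the other arrays 0.05 to 0.49), Ndufb6 at 0.57 and Ndufs8 at 0.33, all on replicate 2. In ovary against testis Cox6c at 0.12 and Ndufb6 at 0.67 stood apart on replicate 1, which had the fewest probes with a value. In ovary against the reference Atp5mpl at -0.23 and Ndufs8 at -0.46 on replicate 2 and Ndufa13 at 0.90 on replicate 4 did. Without the array concerned, of the called members among these 7 kept their call: Ndufb10 (0.71), Ndufc2 (0.63) and Uqcr11 (0.90) in the knockout, and Ndufb5 (1.30), Ndufs3 (0.94), Ndufs6 (1.01) and Uqcrc1 (1.37) in testis against the reference.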

How the results depend on the processing

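Of 107 called member values, 51 kept their call in every alternative with a value, 70 kept it when any 1 array was left out, and 0 changed sign. Leaving out 1 array at a time gave 13 to 24 called members in ovary against testis (50.2% to 59.9% of all genes). At 15 days it gave 10 to 17 (35.1% to 43.2%). With probes present on all 21 arrays 29 members could be tested. Of these 11 were called in ovary against testis (64.3% of all genes) and 9 in the knockout (60%). Against the reference 14 were called in testis (65.95%) and 4 in ovary (26.65%), and 7 were through the reference (53%). This setting tested 2000 genes, against 4465 in the main fit. With arrays scaled to 1 spread, 14 were called in ovary against testis (50.9% of all genes, 59.0% in the main fit). In ovary against the reference 19 were (10 higher and 9 lower, where the main fit had 5 and 2). All genes called there went from 22.9% to 46.0%. A fit of the ovary against reference arrays alone called 12 (31.5% of all genes). By run, 15 days gave 5 in run 2 (22.1% of all genes) and 32 in run 5 (69.2%). Testis against the reference gave 15 in run 3 (44.7%) and ovary against the reference 0 in run 3 (2.78%). The indirect ratio gave 4 in run 3 and 23 in run 5. Direct minus indirect gave 2 in run 5, and a channel order term gave 1 for knockout minus 15 day. In run 3 the indirect ratio called 24.8% of all genes. In run 5 the only testis against reference array was replicate 2, which had the widest spread of all probes. The only ovary against testis array there was replicate 4. The run 5 counts of the indirect ratio and of direct minus indirect thus rest in part on single arrays, and no conclusion is drawn from them. The causes of these shifts were not tested. No paired analysis was possible because the labels give no replicate numbers. Without intensities, signal over background could not be weighed.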
